A study of Mus musculus with 6 samples.

Results

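Heat shock factors, BAG proteins and a group of smaller partners adjust how the HSP70 chaperones work, and 10 genes that encode them were followed in follicular B cells with and without myosin IIa: Hsf1, Hsf2, Hspb1, Bag1, Bag2, Bag3, Serpinh1, Hspbp1, St13 and Stub1. They were chosen by name, out of the 20458 gene names of the deposited table, and all 10 were found there. Follicular B cells, gated as B220+AA4.1- and, within these, as CD23+CD21lo, came from C57BL/6 mice, with 3 samples of CD23Cre+Myh9wt/fl and 3 of CD23Cre+Myh9fl/fl genotype. Both genotypes carry Cre driven by the CD23 promoter, which is active from the transitional stage of splenic B cell development. In wt/fl cells Cre deletes the floxed part of Myh9 on 1 allele, so the comparison group is haploinsufficient and not wild-type, and in fl/fl cells, called deficient, both alleles are deleted. The study's methods describe young mice of both sexes for work on freshly isolated cells, and the labels give neither age nor sex per sample. The question was how the loss of myosin IIa alters gene expression in mature B cells.

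The 3 samples of a genotype had been combined by the authors into a single FPKM value, a fragment count scaled to transcript length and to library size. No value therefore has an error between mice, no test between genotypes could be made, and depth per sample is unknown. A gene was called lower or higher when the log2 ratio of fl/fl over wt/fl, with 1 added to each FPKM, reached a 1.5-fold difference, among the 9866 genes whose mean FPKM over both genotypes was 1 or more (the compared genes). Such a call describes the 2 pooled values only. Myh9 was at 50.6 FPKM in haploinsufficient cells and 21.1 FPKM in deficient cells, 41.7% of the haploinsufficient level, in the direction of the labels. In RNA of a sorted population, fewer cells of a type and less RNA per cell cannot be told apart. The B cell markers Ms4a1, Cd79a, Cd79b, Pax5, Fcer2a, Cd22 and Cr2 were all present, and 0 of these 7 passed the 1.5-fold limit. Their summed level was 4375 FPKM in haploinsufficient cells and 4708 FPKM in deficient cells, with Cd79b the most abundant at 1638 and 1739 FPKM.

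HSP70 chaperones bind unfolded stretches of other proteins and hold or release them in a cycle driven by ATP. Partner proteins set the pace of that cycle: J proteins load substrates, exchange factors such as BAG proteins and HspBP1 make HSP70 let go of ADP, Hip (St13) stabilizes the ADP-bound state, and CHIP (Stub1) adds ubiquitin to clients that cannot be refolded. Hsf1 is the master transcription factor of the heat shock response. It binds heat shock elements, inverted repeats of the letters nGAAn, in the promoters of chaperone genes.

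The heat shock element is where a promoter can connect these genes to Hsf1, so the RefSeq promoter windows (build GRCm38.p6, from 250 bases before to 50 bases after the start of transcription) were searched for 2 adjoining units, written GAANNTTC and TTCNNGAA, each of which reads the same on both strands. Windows were matched for 8 of the 10 genes (not for Hsf1 and St13). GAANNTTC was found in 3 of these 8, those of Hspb1, Bag3 and Stub1, and in 7.86% of the 32851 windows in the RefSeq table. TTCNNGAA was found in 0 of the 8 and in 8.52% of all windows. An element of 3 units on either strand was in 0 of the 8 and in 0.603% of all windows. The sequences with a match are shown, for Hspb1 and Stub1 as the part of the window before the start and for Bag3 as the last 30 bases of the window, because they hold the letters that Hsf1 is known to read. The matches are in capitals.

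Hspb1 promoter, 250 bases before the start, + strand, chr5:135887669-135887918: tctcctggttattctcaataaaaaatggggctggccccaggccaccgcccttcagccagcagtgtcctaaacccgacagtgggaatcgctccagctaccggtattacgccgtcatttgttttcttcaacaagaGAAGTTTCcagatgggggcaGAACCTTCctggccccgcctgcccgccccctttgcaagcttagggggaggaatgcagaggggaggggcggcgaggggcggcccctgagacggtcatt

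Stub1 promoter, 250 bases before the start, − strand, chr17:25832920-25833169: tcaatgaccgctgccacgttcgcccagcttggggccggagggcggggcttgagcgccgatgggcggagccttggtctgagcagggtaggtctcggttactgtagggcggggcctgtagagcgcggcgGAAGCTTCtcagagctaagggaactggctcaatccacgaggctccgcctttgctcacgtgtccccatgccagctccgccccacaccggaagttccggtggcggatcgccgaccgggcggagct

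Bag3, 30 bases that end with its match, + strand, chr7:128523603-128523632: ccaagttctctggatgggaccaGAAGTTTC

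Hspb1 held 2 matches, from 117 to 110 and from 97 to 90 bases before the start. The match of Stub1 lay from 123 to 116 bases before its RefSeq start. In the GENCODE M21 annotation the gene of Stub1 reaches to 25833404, so this window lies within it. In Bag3 the match lay after the RefSeq start, at bases 43 to 50 counted from it, at the end of the window searched. Bases beyond it were not searched, so the count of 3-unit elements could not include one that continues there. GENCODE M21 gives another start for Bag3, 128523616. A match of letters does not show that Hsf1 binds there, and Hsf1 binding was not measured.

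In haploinsufficient cells St13 stood highest, Stub1, Bag1 and Hsf1 lay close together below it, Hspbp1 and Hsf2 were lower still, and Bag2, Hspb1, Bag3 and Serpinh1 had a mean under 1 FPKM. The 6 genes at or over 1 FPKM were compared with the other genes. Of these, 1 was called lower in fl/fl cells (St13), against 1.53% of all compared genes, and 0 were called higher, against 0.791% of all compared genes. These 6 had a median log2 ratio of −0.04, with 4 below and 2 above 0, and the median of all compared genes was 0.0026. The sign of the member median turned (to 0.072) under the scaling given for St13. Without St13 the other 5 genes ran from −0.15 to 0.07, inside the range from −0.34 to 0.31 that held the central 90% of all compared genes.

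**Figure D1:**
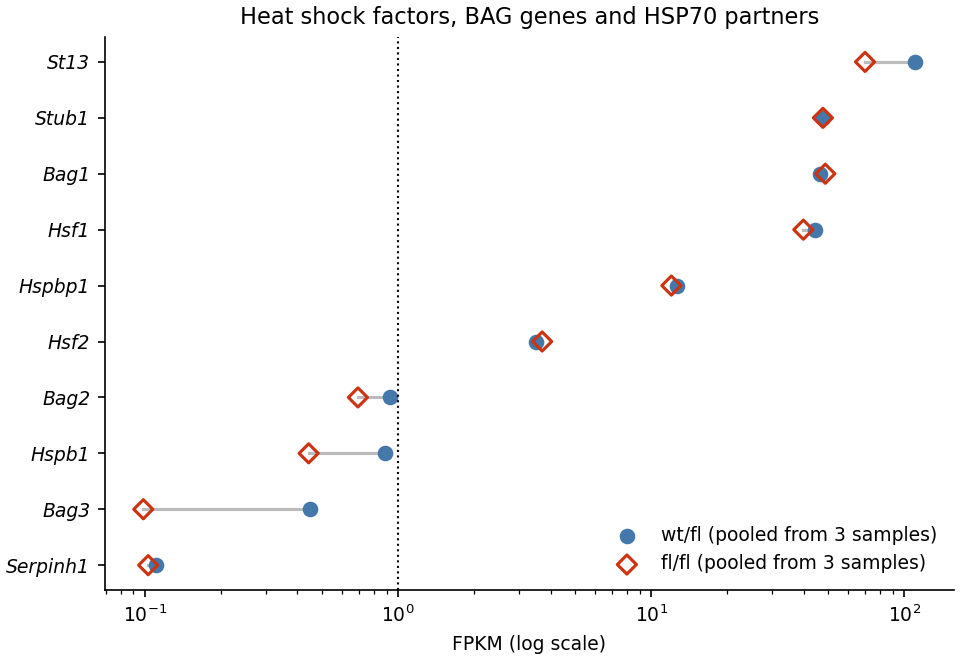
FPKM of the 10 genes on a log axis, as 1 value per genotype pooled by the authors from 3 samples (filled circles, wt/fl; open diamonds, fl/fl), with a dotted line at 1 FPKM. St13 is the highest gene and shows the widest gap among the 6 genes above the line, from 110 to 69.9 FPKM, while the symbols of Stub1 coincide.

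St13 encodes Hip, the HSP70-interacting protein, which slows the release of ADP and so prolongs substrate binding. Its level was 110 FPKM in haploinsufficient cells and 69.9 FPKM in deficient cells. This is 63.4% of the wt/fl level, or 1.58-fold lower, a log2 ratio of −0.65. Only 1.13% of the compared genes had a log2 ratio as low or lower. Among 1064 genes whose wt/fl level lay within 2-fold of that of St13, 1.6% were called lower. St13 remained the most abundant of the 10 genes in both genotypes, at or above the level of 94.5% of compared genes in haploinsufficient and 90.3% in deficient cells. The gene lies on chromosome 15 from 81195473 to 81230124 in the table's coordinates. Myh9, the deleted gene, lies on the same chromosome from 77591018 to 77672545, and Hsf1 from 76307874 to 76331402. The part of DNA linked to the floxed Myh9 allele in the values of St13 and Hsf1 was not tested. The log2 ratio of St13 was near the limit, and the next gene, Hsf1, was far from it. In another setting, fl/fl was scaled so that the upper quartile of its genes above 0 FPKM matched that of wt/fl. This brought the log2 ratio of St13 to −0.54, short of the limit, while that scaling moved the median of all compared genes to 0.11.

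**Figure D2:**
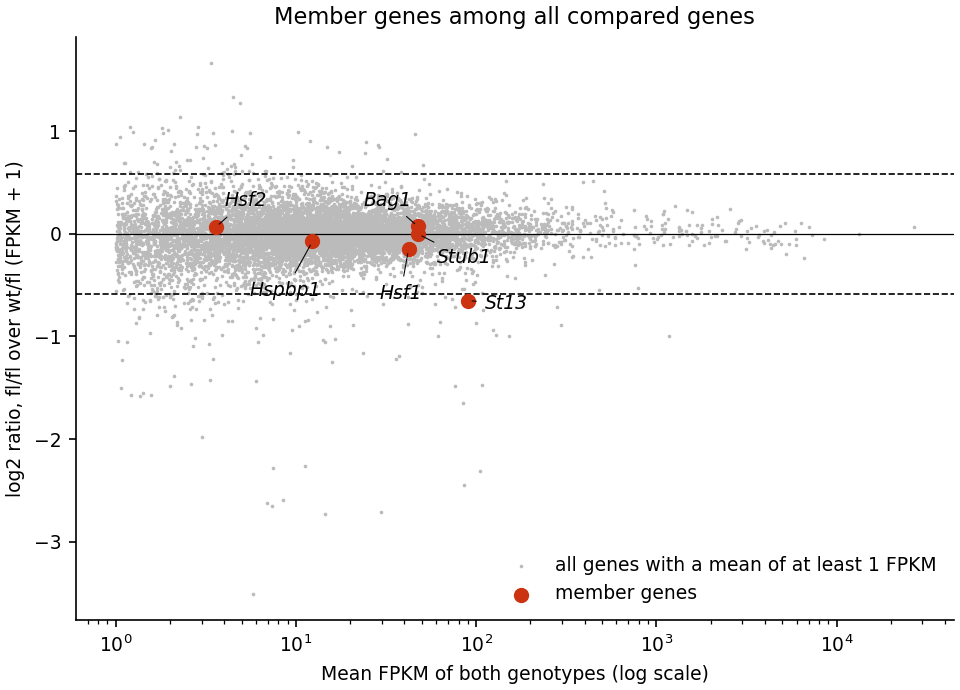
Log2 ratio of fl/fl over wt/fl (1 added to each FPKM) against mean FPKM on a log axis for 9866 genes (grey) and the 6 member genes among them (red). Dashed lines mark 1.5-fold, and St13, at −0.65, is the only member gene beyond them.

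Both heat shock factors were transcribed at nearly equal levels in the 2 genotypes. Hsf1 was at 44.4 FPKM in haploinsufficient cells and 39.9 FPKM in deficient cells, a log2 ratio of −0.15, and 18.3% of compared genes were as low or lower. Hsf2, a related factor that can form mixed trimers with Hsf1, was at 3.49 and 3.71 FPKM, a log2 ratio of 0.07. Hsf1 is held inactive by chaperones and is activated as a protein, which its mRNA level does not show. Of the 6 listed relatives and partners, Hsbp1, which encodes a small protein that binds heat shock factor trimers, was the only one at or over 1 FPKM on average, at 70.2 and 72.2 FPKM.

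The BAG genes encode proteins with a BAG domain, which in most of them binds HSP70 and opens its nucleotide pocket. Bag1 was the most abundant, at 46.3 FPKM in haploinsufficient cells and 48.7 FPKM in deficient cells, a log2 ratio of 0.07. Bag2, which also restrains CHIP, was at 0.931 and 0.694 FPKM, both under 1. Bag3, an Hsf1 target that couples HSP70 and small heat shock proteins to autophagy, was at 0.448 and 0.0984 FPKM. The fl/fl level of Bag3 was 22.0% of the wt/fl level, a 4.55-fold difference in plain FPKM. In the 2680 genes with a mean from 0.1 to 1 FPKM, 4.74% were at least as many fold lower and 5.63% at least as many fold higher. The 3 other BAG genes were each somewhat higher in fl/fl cells and all within 1.5-fold, with Bag6 at 25.1 and 27.0 FPKM, Bag5 at 18.6 and 23.8 FPKM, and a median log2 ratio of 0.16.

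Hspbp1, which encodes an exchange factor that also inhibits CHIP, was at 12.7 FPKM in haploinsufficient cells and 12.0 FPKM in deficient cells, a log2 ratio of −0.07. With the exchange factors of the HSP110 family (Hsph1, Hspa4 and Hspa4l) set beside the BAG genes and Hspbp1, the mixture of transcripts differed between genotypes. The 6 BAG genes summed to 96.0 FPKM in haploinsufficient cells and 106 FPKM in deficient cells. The HSP110 genes summed to 213 and 118 FPKM. BAG genes thus made up 29.8% of the summed FPKM of the 10 genes of these 3 classes in wt/fl cells and 44.9% in fl/fl cells, and HSP110 genes 66.3% and 50.02%. The gap in HSP110 lay in Hsph1 (129 and 40.3 FPKM) and Hspa4l (13.2 and 5.35 FPKM), whereas Hspa4 was at 71.3 and 72.1 FPKM. These sums count all BAG genes alike, although the BAG domain of Bag6 is divergent. Bag6 made up 25.1 and 27.0 FPKM of them, and whether it acts as an exchange factor was not examined.

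**Figure D3:**
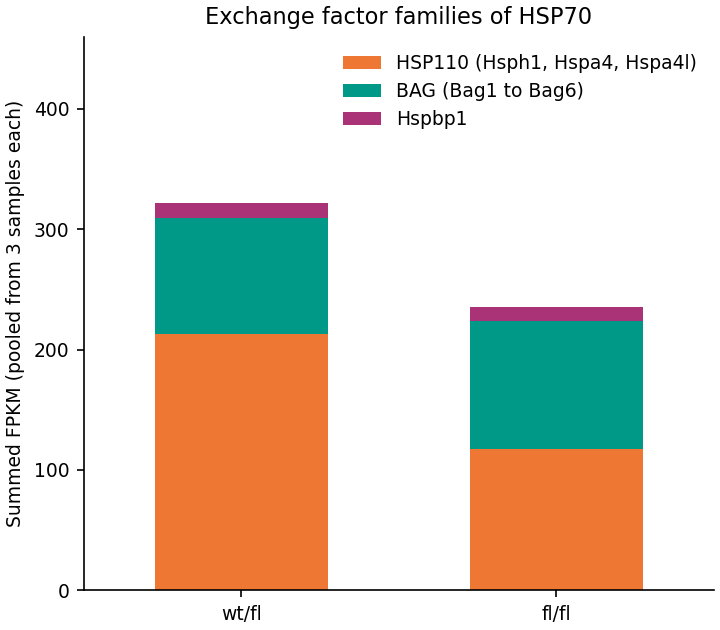
Summed FPKM of HSP110, BAG and Hspbp1 transcripts in wt/fl and fl/fl cells (1 pooled value per genotype and gene, bars from 0). The HSP110 part goes from 213 to 118 FPKM, and the BAG part from 96.0 to 106 FPKM.

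Stub1 encodes CHIP, the ubiquitin ligase of the HSP70 and HSP90 systems. Its level was 47.7 FPKM in both genotypes, 99.9% of the wt/fl level in fl/fl cells. In the table, the interval of Stub1 on chromosome 17 from 25965987 to 25970306 also holds Jmjd8, at 6.00 and 5.25 FPKM, and since counting by strand is not stated, fragments of these neighbours could have been exchanged. The genes listed as E2 enzymes that work with CHIP also differed little. All 6 found in the table were within 1.5-fold, with log2 ratios from −0.12 to 0.03, including Ube2d3 at 72.0 and 69.8 FPKM and Ube2d2a at 63.6 and 64.4 FPKM.

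Hspb1 encodes the small heat shock protein Hsp25 (HSP27 in humans), which holds unfolding proteins without using ATP. It was at 0.885 FPKM in haploinsufficient cells and 0.443 FPKM in deficient cells, 50.1% of the wt/fl level. Of the genes from 0.1 to 1 FPKM, 16.1% were at least as many fold lower and 14.1% at least as many fold higher. Most other small heat shock protein genes were nearly silent as well. Of 9 listed, 3 were at 0 FPKM in both genotypes (Hspb3, Hspb8 and Cryaa). The filter was passed by 2, Hspb11 at 17.0 and 15.7 FPKM and Hspb6 at 3.07 and 3.38 FPKM. Hspb11 was listed for its symbol, and whether it acts as a chaperone was not examined. Serpinh1, which encodes the collagen chaperone Hsp47 of the endoplasmic reticulum, was the lowest of the 10 genes in wt/fl cells, at 0.111 and 0.103 FPKM. The collagen genes of stromal cells were at or near 0 as well, with Col3a1 at 0 in both genotypes and Col1a1 at 0.0124 and 0.00602 FPKM. Among 8 listed genes that act on collagen beside Hsp47, 5 passed the filter and 2 were called lower, P4ha1, a prolyl hydroxylase subunit (8.67 and 3.66 FPKM), and Plod1, a lysyl hydroxylase (2.92 and 1.27 FPKM). Ppib and P4hb, the most abundant, were at 47.9 and 48.4 FPKM and at 44.6 and 41.4 FPKM.

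The position of the 10 genes within the chaperone system was then described with the other listed chaperone genes. Of 68 genes on 10 lists that passed the filter, 13 were called lower and 1 higher, beside 1.53% and 0.791% of all compared genes. Their median log2 ratio was −0.11. The lists were chosen with earlier results of these data known, so these counts are not independent of those results. The genes called lower lay in the lists of HSP70 and HSP110, DNAJ, HSP90 and collagen-modifying genes. In the HSP70 and HSP110 list 4 of 10 genes were called lower, among them Hspa8, the constitutive HSP70 of the cytosol, at 1574 and 788 FPKM, and 1 was called higher, the low Hspa1l (0.854 and 1.82 FPKM). Hspa1b, also called lower, and Hspa1a are near-identical copies whose fragments could have been split. In the list of HSP90 and its co-chaperones 6 of 16 were lower, with Hsp90aa1 at 387 and 208 FPKM and Chordc1 at 81.8 and 40.4 FPKM, while the most abundant, Hsp90ab1, at 936 and 647 FPKM, was within the limit. Of 8 cytosolic DNAJ genes, 1 was lower, Dnaja1 at 130 and 70.9 FPKM, and Dnajc7 was at 95.2 and 89.1 FPKM. Dnajb1, at 59.8 and 39.8 FPKM, stopped just short of the limit with a log2 ratio of −0.573. In this list 6 genes lay below 0 and 2 above.

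Chaperonins and organelle HSP70 genes did not reach the limit. For the 10 chaperonins the median log2 ratio was −0.16, with Hspe1 at 571 and 390 FPKM and Cct5 at 155 and 142 FPKM. Hspd1, at 129 and 86.1 FPKM, stopped just short of the limit with a log2 ratio of −0.577. Among the chaperonins 9 lay below 0 and 1 above. The 7 genes for HSP70 of mitochondria and the endoplasmic reticulum with their exchange factors had a median of 0.0097, with Hspa5 at 285 and 264 FPKM and Hspa9 at 54.4 and 54.7 FPKM. The regulators and partners followed here included 1 called gene among 6, St13. The lists of other heat shock factors, other BAG genes, other small heat shock proteins and E2 enzymes included 0 among 12. Of all compared genes, 1.53% were called lower and 0.791% higher. With shares this small, 0 among 12 does not set these lists apart from other genes.

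**Figure D4:**
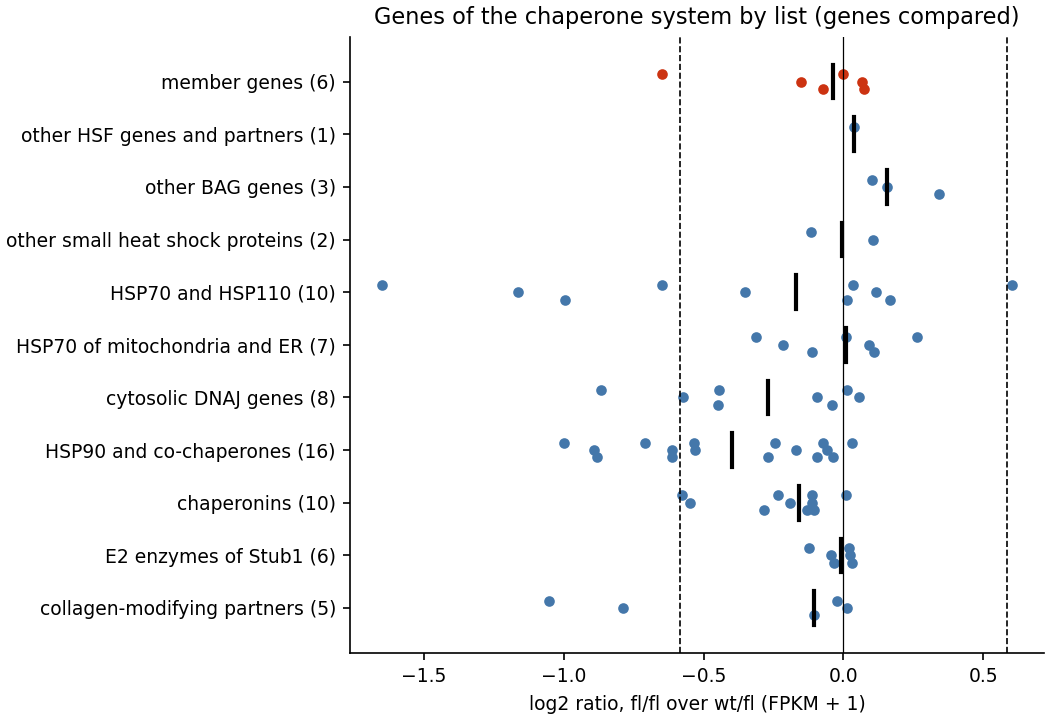
Log2 ratios of fl/fl over wt/fl (1 added to each FPKM) for the 6 member genes (red) and for 68 other genes of the chaperone system by list (blue), with medians as black bars and dashed lines at 1.5-fold. Points beyond the left line belong to the HSP70 and HSP110, DNAJ, HSP90 and collagen lists and to St13.

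Because Hspa8 was 2.00-fold lower, the level of each partner per 100 FPKM of Hspa8 was higher in fl/fl cells for all 6 genes, which follows largely from Hspa8 itself. Bag1 went from 2.94 to 6.18 FPKM per 100 FPKM of Hspa8, and Stub1 from 3.03 to 6.05. St13 went from 7.01 to 8.87, a ratio of 1.27 between the genotypes, the smallest of the 6.

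Promoter windows were matched for 11 of the 13 listed genes called lower. GAANNTTC was found in 6 of these 11, in 6 of 43 matched genes that passed neither limit, and in 7.005% of the 7509 matched compared genes. TTCNNGAA was found in 2 of the 11, in 7 of the 43 and in 8.40% of the matched compared genes, and the element of 3 units in 2, in 3 and in 0.613%. Among the member genes that had a window and a mean of 1 FPKM or more, GAANNTTC was in that of Stub1, whose log2 ratio was −0.0014. St13, the member gene called lower, had no window and was not searched. These counts were not tested.

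Markers of other cell types were measured in the same RNA. All 6 neutrophil markers that passed the filter were called lower in fl/fl cells, and the 8 listed summed to 364 FPKM in haploinsufficient cells and 64.6 FPKM in deficient cells, with S100a9 at 175 and 34.5 FPKM. The 5 erythroid markers in the table all had a mean under 1 FPKM, so 0 passed the filter, and they summed to 3.80 and 0.776 FPKM. Beta-s, a haemoglobin gene outside that list, was well above the filter, at 52.0 and 7.08 FPKM, a log2 ratio of −2.71. T cell markers summed to 22.8 and 21.4 FPKM, with Lck at 14.5 in both, and macrophage and monocyte markers to 14.3 and 13.6 FPKM, with Cd68 at 7.41 and 6.10 FPKM. Of the 9 stromal and endothelial markers, Col3a1 and Pdgfra were at 0 in both genotypes, and Pecam1, which B cells also express, was at 71.0 and 80.0 FPKM. The part of these transcripts in the values of St13, Bag3 and Hspb1 was not tested.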

How the data were processed

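RNA of follicular B cells was amplified with the Ovation RNA-Seq system V2 and sequenced by the authors, with 3 samples per genotype. The submitters' processing notes name Bowtie, TopHat and Cufflinks without versions, and the builds mm10 and GRCm38. The authors deposited FPKM values in a table with the layout of Cuffdiff, with 1 value per genotype pooled over its samples. Positions in the table overlapped the GRCm38 gene (GENCODE M21) for 0 of the 10 genes and lie on mm9, as the position of Myh9 shows. They were not converted. The columns that hold the authors' own fold changes, test statistics and p-values were not used.

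FPKM was summed per gene name, each of the 10 genes being a single entry, and 44 entries whose symbol reads as a date were left out. Log2 ratios were computed with a pseudocount of 1 in Python 3.11.15 (pandas 2.3.3, numpy 2.4.6), and the computation was tested on simulated data. The simulated differences held no noise and lay well past 1.5-fold, so that test covers the arithmetic and not calls near the limit. Genes other than the 10 were named by a rule: the 2 most abundant genes of each list, those at least 2-fold lower or higher, and the most abundant marker of each cell type. Further genes (Plod1, Chordc1, Hspa1b, Hspa1a, Hspa1l, Hspa4, Dnajb1, Hspd1, Beta-s, Jmjd8 and genes at or near 0) were named after their values were seen. The members and lists were chosen with earlier results of these data known, and 1 listed B cell marker is not reported here.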

Additional observations from a re-analysis of the deposited data

How the results depend on the processing

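No paired analysis was possible because the 3 samples of a genotype were pooled into 1 value, and for the same reason no replicate could be left out. The count of 1 member gene past 1.5-fold, St13, stayed at 1 with a pseudocount of 0.1 or 0.5, a minimum mean of 5 FPKM, no filter, the largest entry only, a smaller fold limit, and scaling by the upper quartile of the compared genes, an alternative chosen after seeing the data. It was 0 at a fold of 2 and 0 with scaling by the upper quartile of all genes above 0 FPKM. That scaling also moved the median log2 ratio of the member genes from −0.037 to 0.072 and that of all compared genes from 0.0026 to 0.11, so both moved by a like amount. Hspbp1 (0.03), Stub1 (0.11) and Serpinh1 (0.00087) then lay above 0, a change of sign that the common shift brings about. More genes lay above 0 in fl/fl (16430) than in wt/fl (15324), which lowers that quartile in fl/fl. Over the settings, the log2 ratio of St13 ran from −0.66 to −0.54. Values under 1 FPKM depended on the pseudocount. Bag3 was at −0.40 with 1 FPKM added, −0.66 with 0.5 and −1.47 with 0.1, and Hspb1 at −0.39, −0.55 and −0.86. At a pseudocount of 0.1, 536 of 2680 genes from 0.1 to 1 FPKM would count as 1.5-fold lower. The count of listed chaperone genes past 1.5-fold, 14 as reported, ran from 11 to 15 over 5 alternatives. These were a pseudocount of 0.1, both scalings, a minimum mean of 5 FPKM and no filter. For other fold limits, a pseudocount of 0.5 and the largest entry only, that count was not made. Depth per sample is unknown, which limits what values under 1 FPKM can show.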
